A study of Canis lupus familiaris with 8 samples.

Results

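The genes described here are the 5 that set how a tissue receives cortisol and inactivates it: the glucocorticoid receptor NR3C1, the mineralocorticoid receptor NR3C2, the cortisol enzymes HSD11B1 and HSD11B2, and the receptor cochaperone FKBP4. They were taken by symbol, 5 of 24580 genes, and each symbol had 1 row. Messenger RNA was sequenced from adrenal cortex and pituitary of adult dogs of 2 breeds, Beagle and Chinese Field Dog. In each breed and tissue 1 library came from dogs under chronic stress exposure and 1 from a control arm that the labels call non-disposal, read here as unexposed, so that 8 groups held 1 library each. The labels used here name no genotype or treatment beyond this. They do not state what the stress was, how many dogs a library holds and whether a dog gave both of its glands, so a p-value here speaks of the spread among these libraries, which may be technical.

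Cortisol diffuses into cells and binds 2 nuclear receptors: NR3C1, found in nearly all tissues, and NR3C2, which also binds aldosterone and has a high affinity for cortisol. HSD11B2 oxidises cortisol to inactive cortisone and so shields NR3C2 in kidney and colon, while HSD11B1 turns cortisone back into cortisol with cofactor that H6PD makes in the endoplasmic reticulum. FKBP4 helps to keep the receptors in a hormone-binding state and carries them to the nucleus, where its relative FKBP5 works against it. In the pituitary, NR3C1 is known for its part in shutting off the hormone that drives adrenal cortisol.

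Libraries held 14327357 to 18712035 recovered reads. The markers of the labelled tissues were where the labels put them, although the extraction note speaks of spleen: the summed level of 7 adrenal cortex markers was 22306 to 27473 FPKM (reads per gene length and depth) in adrenal cortex and 44.5 to 76.5 in pituitary. The sum of 9 anterior pituitary markers was 82119 to 165662 FPKM in pituitary and 31.2 to 53.8 in adrenal cortex, with GH1 listed at 0 in the unexposed Beagle pituitary, where the authors' deposited table gives its status as HIDATA and not OK. The adrenal cortex libraries also held medulla, at 3186 to 5573 FPKM over 7 markers. The same 7 summed to 1321 to 1673 FPKM in pituitary. Most of that pituitary sum was CHGA and CHGB, with CHGB alone at 1014 to 1339 FPKM. The stressed Chinese Field Dog pituitary stood apart with 911 FPKM over 10 forebrain neuron markers and 555 over 7 glial markers, against at most 11.1 and 113 in the other pituitaries, and results are given without it below. In such bulk samples fewer cells of a type and less RNA per cell cannot be told apart.

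Both receptors were higher in pituitary, NR3C1 by 2.49-fold and NR3C2 by 5.19-fold in mean FPKM, while HSD11B2 was 329-fold higher and FKBP4 2.27-fold higher in adrenal cortex. HSD11B1 did not pass the test. The tests are those of limma on log2(FPKM + 1), pituitary minus adrenal cortex, with breed and exposure as covariates and Benjamini-Hochberg adjustment over 14808 genes; this scale understates the change of low genes. Of all genes tested, 60.1% passed an adjusted p of 0.05 between tissues, 29.1% higher in pituitary and 31.0% lower, so that a count of 4 in 5 genes does not set the group apart. These shares depend on the scaling: with each library scaled to an equal sum of values (TPM), the median of all genes moved from -0.00 to 0.50, 55.1% of genes passed as higher in pituitary and 13.6% as lower. Under that scaling the 4 genes kept their direction and their call. The share of all genes whose tissues do not overlap was not counted, so the separations given below are descriptions.

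**Figure D1:**
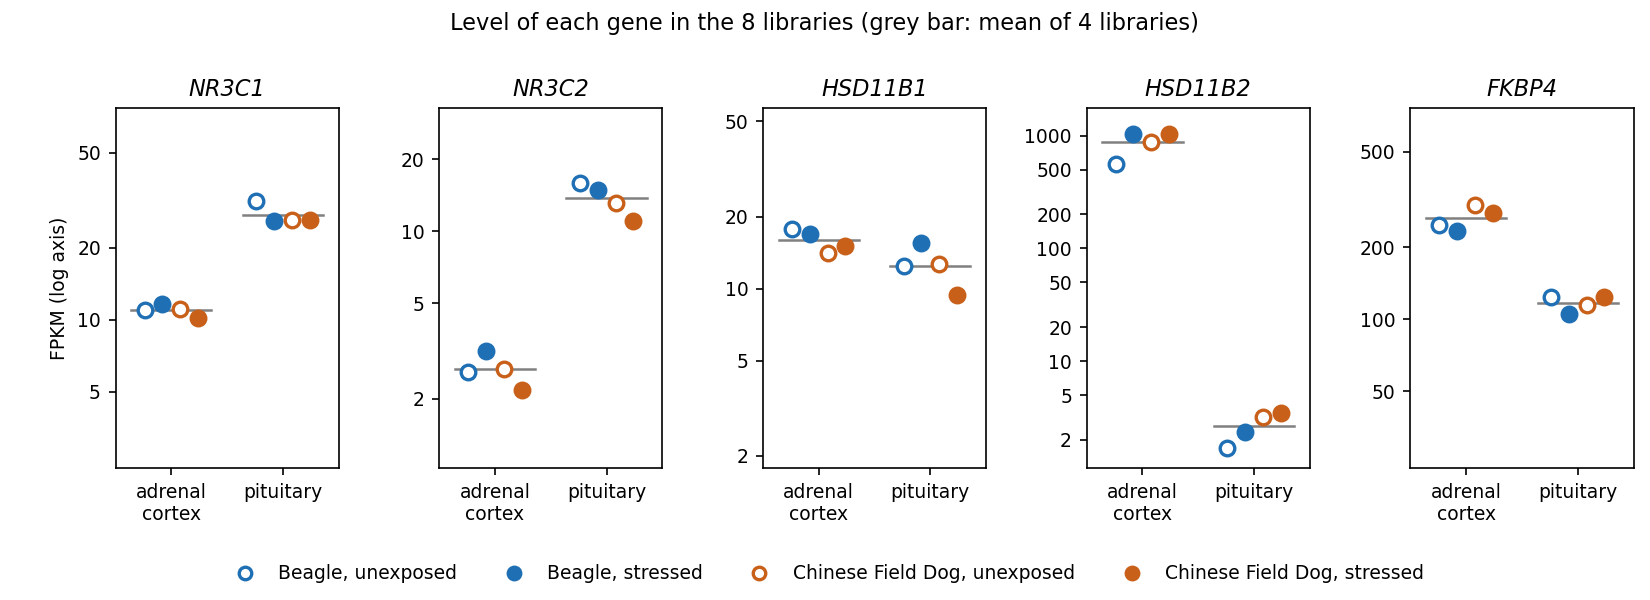
FPKM of the 5 genes in each of the 8 libraries, with 1 panel and 1 log axis per gene; open points are unexposed, filled points stressed, blue Beagle and orange Chinese Field Dog, and the grey bar is the mean of 4 libraries. The tissues do not overlap for NR3C1, NR3C2, HSD11B2 and FKBP4 and overlap for HSD11B1. The share of all genes without overlap was not counted, and 60.1% of all genes passed the limma test between tissues.

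NR3C1 (ENSCAFG00000006293, CanFam3.1 chromosome 2, 38123189 to 38240753) stood in adrenal cortex at 11.01 FPKM in unexposed and 11.6 in stressed Beagle, and at 11.1 in unexposed and 10.2 in stressed Chinese Field Dog. In pituitary it stood at 31.3 in unexposed and 25.9 in stressed Beagle, and at 26.2 in both unexposed and stressed Chinese Field Dog. All 4 pituitary libraries were above all 4 adrenal libraries, and the unexposed Beagle pituitary was above the other 3, which lay close together in FPKM. The means were 10.99 ± 0.578 FPKM in adrenal cortex and 27.4 ± 2.61 in pituitary (SD, n = 4 each), and the limma log2 difference was 1.24 (SE 0.09, adjusted p = 0.000113). Between 1013 and 3796 reads lay behind each value, so that counting error was small beside the tissue difference.

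NR3C2 (ENSCAFG00000007813, chromosome 15, 46390486 to 46710131) was the lowest of the 5 genes in adrenal cortex, with 2.59 FPKM in unexposed and 3.18 in stressed Beagle, and 2.67 in unexposed and 2.18 in stressed Chinese Field Dog. The pituitary libraries stood at 16.0 in unexposed and 14.9 in stressed Beagle, and at 13.1 in unexposed and 11.1 in stressed Chinese Field Dog. The tissues did not overlap, and the lowest pituitary library was 3.49 times the highest adrenal one. The means were 2.65 ± 0.411 and 13.8 ± 2.14 FPKM (SD, n = 4 each), with a limma log2 difference of 2.01 (SE 0.10, adjusted p = 4.39e-05). The adrenal values rest on 84 to 142 reads, and edgeR, which tests reads without a pseudocount, gave a log2 difference of 2.37.

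The balance of the 2 receptors was compared within each library. The ratio of NR3C1 to NR3C2, in FPKM and so per length, was 4.25 in unexposed and 3.65 in stressed Beagle adrenal cortex, and 4.18 in unexposed and 4.69 in stressed Chinese Field Dog adrenal cortex. In pituitary the ratio was 1.96 in unexposed and 1.74 in stressed Beagle, and 2.004 in unexposed and 2.36 in stressed Chinese Field Dog. NR3C1 was thus the more abundant receptor mRNA in all 8 libraries, and the 2 tissues did not overlap, with means of 4.19 ± 0.427 and 2.02 ± 0.258 (SD, n = 4 each).

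HSD11B1 (ENSCAFG00000011925, chromosome 7, 8382176 to 8413632) stood in adrenal cortex at 17.8 FPKM in unexposed and 16.9 in stressed Beagle, and at 14.1 in unexposed and 15.0 in stressed Chinese Field Dog. Its pituitary level was 12.4 in unexposed and 15.5 in stressed Beagle, and 12.7 in unexposed and 9.36 in stressed Chinese Field Dog. The stressed Beagle pituitary lay within the adrenal range and the stressed Chinese Field Dog pituitary, the library with neuronal markers, was the lowest of the 8. The means were 16.0 ± 1.70 and 12.5 ± 2.51 FPKM (SD, n = 4 each). The limma log2 difference of -0.35 (SE 0.13) did not pass, at an adjusted p of 0.0564.

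The call on HSD11B1 turned on single libraries and its direction on the scaling. Without the stressed Beagle pituitary the log2 difference was -0.44 (adjusted p = 0.0401, limma), and without the unexposed Chinese Field Dog pituitary -0.43 (adjusted p = 0.0442). Under TPM scaling it was 0.18, with an adjusted p of 0.288. Its depth was low, at 162 to 273 reads per library. It was also the only one of the 5 genes whose authors' scaled count per FPKM varied between libraries, from 16.0 to 17.6.

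HSD11B2 (ENSCAFG00000020362, chromosome 5, 81966342 to 81968303) had the widest tissue difference of the 5. In adrenal cortex it stood at 557 FPKM in unexposed and 1035 in stressed Beagle, and at 878 in unexposed and 1031 in stressed Chinese Field Dog. The pituitary level was 1.69 in unexposed and 2.34 in stressed Beagle, and 3.17 in unexposed and 3.46 in stressed Chinese Field Dog. The lowest adrenal library was 161 times the highest pituitary library. The means were 875 ± 224 and 2.66 ± 0.802 FPKM (SD, n = 4 each), and the limma log2 difference was -7.89 (SE 0.15, adjusted p = 5.03e-06), the 13th lowest of 14808. The gene ranked between 152 and 221 of 24580 by FPKM in the adrenal libraries and between 12324 and 13401 in the pituitary libraries.

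Reads from neighbouring tissue were looked for on both sides of this difference. HSD11B2 is a kidney enzyme, and the sum of 7 kidney markers was 1.83 to 5.29 FPKM in adrenal cortex, with the kidney tubule genes UMOD and AQP2 at 0 in at least 2 of the 4 adrenal libraries and at most 0.0379 FPKM in the others. SLC22A6, a transporter of the proximal tubule named here after its values were seen, stood at 1.43 FPKM in unexposed and 2.28 in stressed Beagle adrenal cortex, and at 0.479 in unexposed and 3.88 in stressed Chinese Field Dog adrenal cortex, on 13 to 81 reads. It was higher in the stressed adrenal library of both breeds, as HSD11B2 was, and its part was not tested. The pituitary value of HSD11B2 came from 40 to 77 reads and was 0.194% of its adrenal mean in unexposed Beagle, 0.267% in stressed Beagle, 0.362% in unexposed Chinese Field Dog and 0.395% in stressed Chinese Field Dog. Genes of steroid synthesis were also present in pituitary at a low share of their adrenal mean. CYP17A1, the 17-hydroxylase, was at 0.00934%, 0.0391%, 0.0676% and 0.138% in the same order of libraries. HSD3B2, the 3-beta-hydroxysteroid dehydrogenase, was at 0.00726%, 0.0398%, 0.0667% and 0.143%. CYP11A1 was at 0.0472% to 0.173% and CYP21A2 at 0.0343% to 0.153%, and these 4 genes had the same order of libraries as HSD11B2, with a smaller share in each. STAR, the cholesterol carrier of steroid synthesis, did not: it was at 0.107%, 0.106%, 0.371% and 0.186%, and in the unexposed Chinese Field Dog above HSD11B2. MC2R, the adrenal receptor for the pituitary hormone, had no read in any of the 4, which allows up to 3 reads in each. The part of adrenal RNA in the pituitary level of HSD11B2 was not tested.

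The ratio of the 2 enzymes changed sides between the glands. HSD11B2 over HSD11B1, in FPKM, was 31.3 in unexposed and 61.2 in stressed Beagle adrenal cortex, and 62.2 in unexposed and 68.7 in stressed Chinese Field Dog adrenal cortex. In pituitary it was 0.137 in unexposed and 0.151 in stressed Beagle, and 0.249 in unexposed and 0.369 in stressed Chinese Field Dog. The inactivating enzyme had the higher level in all 4 adrenal libraries and the reactivating enzyme in all 4 pituitaries. HSD11B2 over NR3C2, the receptor it is known to shield, ranged from 215 to 474 in adrenal cortex and from 0.106 to 0.312 in pituitary.

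H6PD, which supplies the cofactor of HSD11B1, stood in adrenal cortex at 28.5 FPKM in unexposed and 45.9 in stressed Beagle, and at 46.8 in unexposed and 47.1 in stressed Chinese Field Dog. Its pituitary level was 21.005 in unexposed and 20.1 in stressed Beagle, and 20.4 in unexposed and 14.8 in stressed Chinese Field Dog. It was lower in pituitary by limma, with a log2 difference of -1.08 (SE 0.22, adjusted p = 0.00636). HSD11B1 itself had a log2 difference of -0.35 and did not pass (limma adjusted p = 0.0564). The 2 genes were not tested against each other. Under TPM scaling the difference of H6PD was -0.54 and did not pass (adjusted p = 0.0712).

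**Figure D2:**
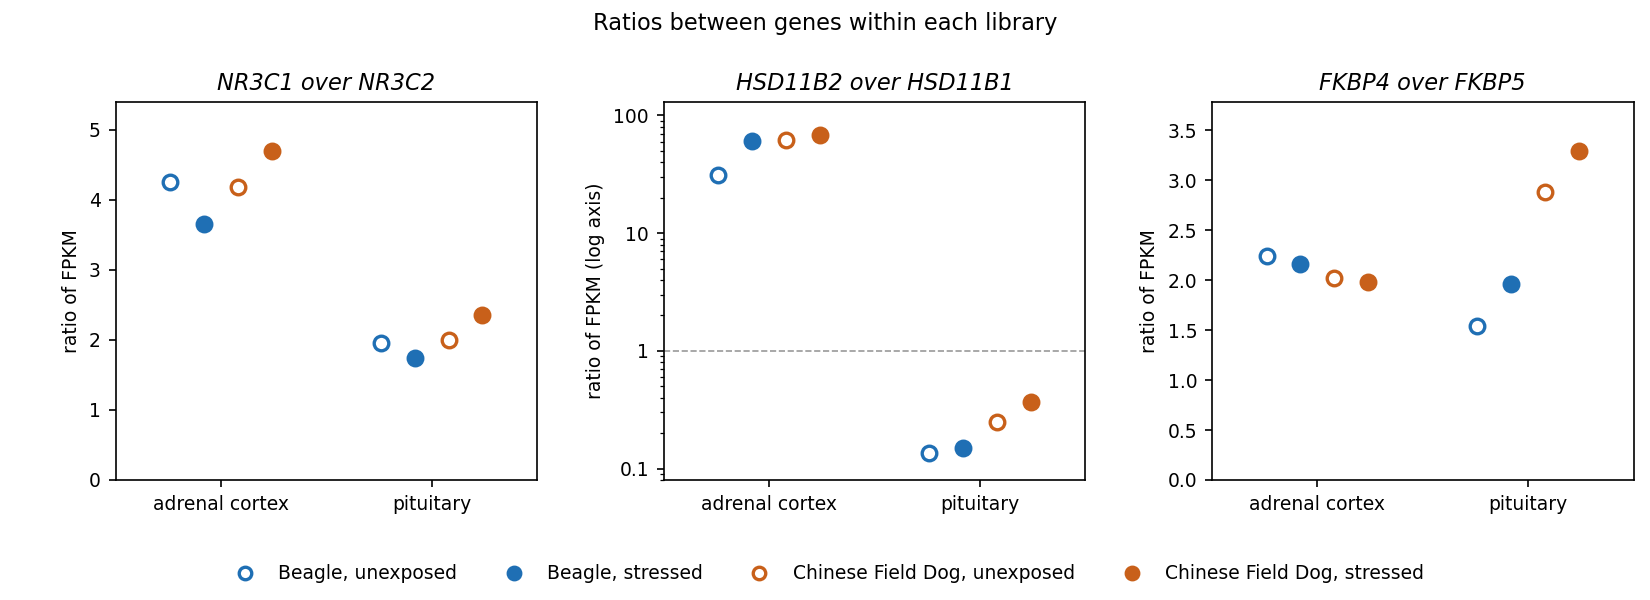
Ratios of FPKM within each library for the 2 receptors, the 2 enzymes (log axis, dashed line at equal levels) and the 2 FKBP cochaperones; open points are unexposed, filled points stressed, blue Beagle and orange Chinese Field Dog. The enzyme ratio is at least 31.3 in adrenal cortex and at most 0.369 in pituitary, and the receptor ratio is higher in adrenal cortex without overlap.

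FKBP4 (ENSCAFG00000015576, chromosome 27, 41950778 to 41959299) stood in adrenal cortex at 248 FPKM in unexposed and 233 in stressed Beagle, and at 300.4 in unexposed and 279 in stressed Chinese Field Dog. Pituitary held 123 in unexposed and 105 in stressed Beagle, and 115 in unexposed and 124 in stressed Chinese Field Dog. The tissues did not overlap, and within each tissue the highest library was at most 1.29 times the lowest. The means were 265 ± 30.5 and 117 ± 8.84 FPKM (SD, n = 4 each), with a limma log2 difference of -1.17 (SE 0.09, adjusted p = 0.00019). The difference was -0.61 under TPM scaling and still passed (adjusted p = 0.00159). The locus overlaps 1 gene without a symbol, whose level reached at most 9.76 FPKM, and the strand of counting is not given in the sources used here.

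FKBP5, the cochaperone that slows receptor transport, stood in adrenal cortex at 110 FPKM in unexposed and 107 in stressed Beagle, and at 149 in unexposed and 141 in stressed Chinese Field Dog. In pituitary it stood at 80.3 in unexposed and 53.6 in stressed Beagle, and at 39.8 in unexposed and 37.6 in stressed Chinese Field Dog. It was lower in pituitary, with a limma log2 difference of -1.30 (SE 0.26, adjusted p = 0.00681). FKBP4 over FKBP5 was 2.24, 2.17, 2.02 and 1.98 in adrenal cortex, in the order of unexposed and stressed Beagle, then unexposed and stressed Chinese Field Dog. In pituitary it was 1.54, 1.96, 2.88 and 3.29 in the same order, so the range was wider there and the tissues overlapped.

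Among the 5 genes, levels per length in adrenal cortex ran from HSD11B2 through FKBP4, HSD11B1 and NR3C1 to NR3C2, and no neighbours in this order overlapped over the 4 libraries. In pituitary they ran from FKBP4 through NR3C1, NR3C2 and HSD11B1 to HSD11B2, and NR3C2 and HSD11B1 overlapped. HSD11B2 was first in one gland and last in the other.

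Without the stressed Chinese Field Dog pituitary, the limma log2 differences were 1.23 for NR3C1, 2.06 for NR3C2, -0.24 for HSD11B1, -7.84 for HSD11B2 and -1.19 for FKBP4. HSD11B1 had an adjusted p of 0.092 in that fit, and the other 4 genes passed. Over all 8 fits that left out 1 library, the same 4 genes passed each time.

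Chronic stress was compared within each breed and tissue, 1 library against 1, and then over both breeds. In normalized reads, HSD11B2 was the only one of the 5 genes that was higher in the stressed library in all 4 pairs. The pituitary pairs rest on 57 against 40 reads in Beagle and 77 against 77 in Chinese Field Dog. With equal reads, the latter ratio comes from the scaling of the libraries alone. The share of all genes with 1 direction in all 4 pairs was not counted. Under TPM scaling HSD11B2 was lower in the stressed library of both Chinese Field Dog pairs. It stood on that scale at 646 unexposed and 604 stressed in adrenal cortex, and at 3.61 and 3.18 in pituitary. None of the 40 gene and pair combinations, breed pairs included, reached 2-fold in normalized reads. For comparison, between 2.02% and 9.54% of genes were at least 2-fold apart in log2(FPKM + 1) in the stress pairs: 3.28% in Beagle adrenal cortex, 2.02% in Chinese Field Dog adrenal cortex, 2.35% in Beagle pituitary and 9.54% in Chinese Field Dog pituitary. The limma fit over both breeds called 1 of 14808 genes in adrenal cortex and 1 in pituitary (0.00675% each), and none of the 5.

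**Figure D3:**
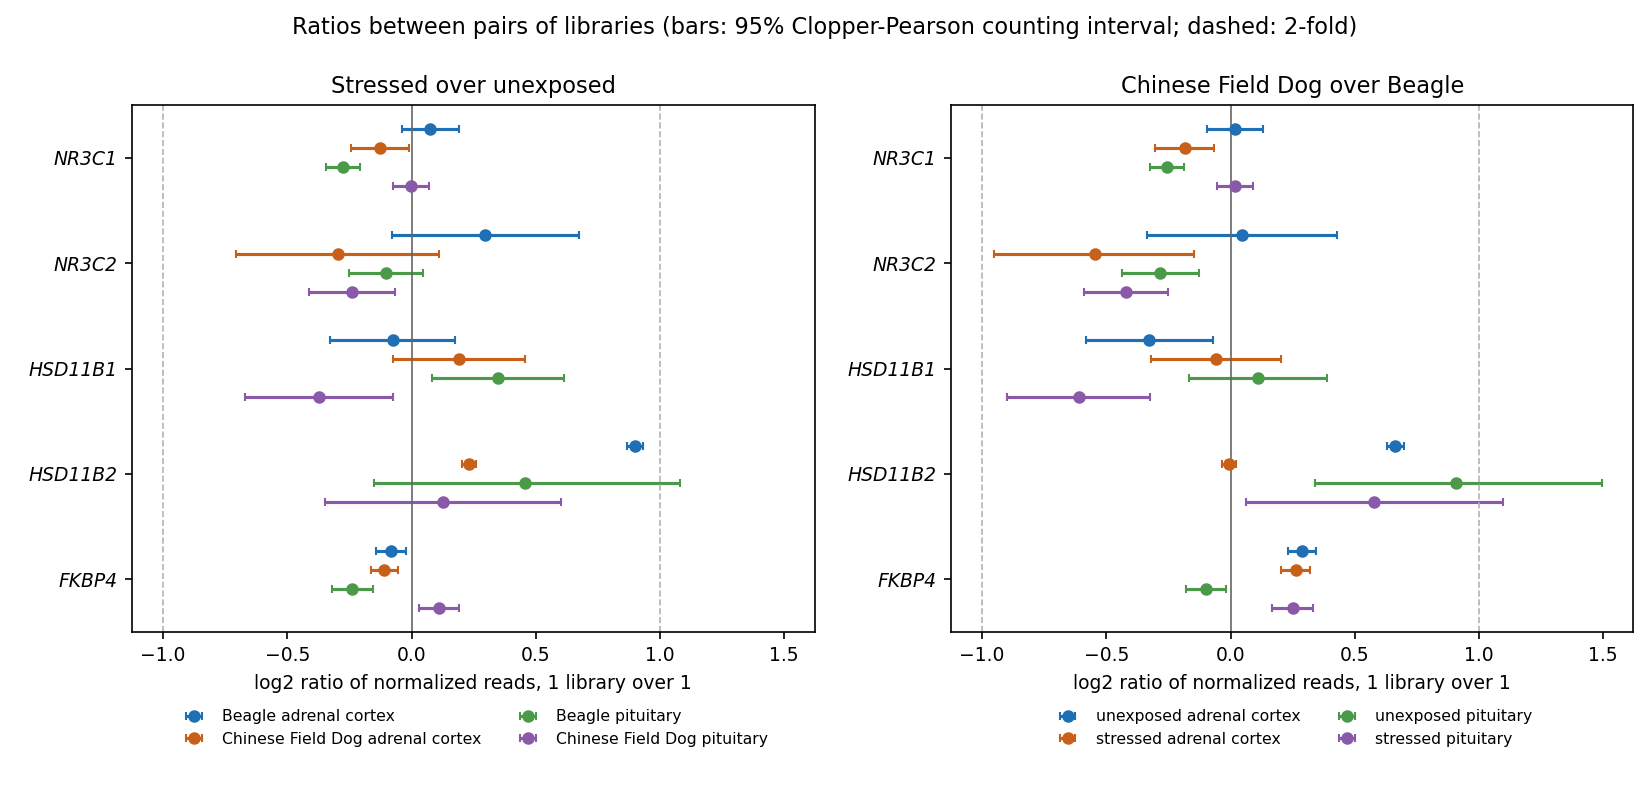
Log2 ratio of normalized reads of the 5 genes for stressed over unexposed (left) and Chinese Field Dog over Beagle (right), with 1 point per pair of libraries and 95% Clopper-Pearson intervals as bars, which cover counting error only; dashed lines mark 2-fold. No point passes 2-fold, and HSD11B2 is to the right of 0 in all 4 stress pairs on this scale. Its intervals in both pituitary stress pairs include 0.

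The log2 ratio of HSD11B2, stressed over unexposed in normalized reads, was 0.90 in Beagle adrenal cortex (95% counting interval 0.87 to 0.93) and 0.23 in Chinese Field Dog adrenal cortex (0.20 to 0.26). In pituitary it was 0.46 in Beagle (-0.15 to 1.08) and 0.13 in Chinese Field Dog (-0.35 to 0.60), where both intervals include 0. Intervals throughout are Clopper-Pearson and cover counting error only. The Beagle adrenal ratio, 1.86-fold, was matched or passed in size by 4.03% of all genes in that pair. In the limma fit the stress effect in adrenal cortex was 0.56 (SE 0.21), with an unadjusted p of 0.0559 and an adjusted p of 1, and 5.23% of genes moved as far. In pituitary it was 0.20 (SE 0.21, adjusted p = 0.898). Under TPM scaling the stress effect of HSD11B2 was 0.34 in adrenal cortex and 0.0097 in pituitary.

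The Beagle ratio rests on 1 low library. The unexposed Beagle adrenal cortex, at 557 FPKM, was below the other 3 adrenal libraries, which stood at 878 to 1035. H6PD was lowest in the same library, with a log2 ratio of 0.70 in Beagle adrenal cortex (0.63 to 0.76) and 0.01 in Chinese Field Dog adrenal cortex (-0.05 to 0.06). That library also had the highest sum of medulla markers, 5573 FPKM against 4703, 3464 and 3186, and the highest sum of 5 fat markers, 102 FPKM against 21.7, 49.0 and 81.0. CHGA alone of the 7 medulla markers was higher in stressed Beagle, at 1920 FPKM against 1752 in unexposed Beagle. The sums of fibroblast, forebrain neuron and glial markers in the unexposed Beagle library were the highest of the 4 as well, at 582, 42.0 and 37.1 FPKM. The sum of 7 adrenal cortex markers was not lowest in that library, at 23165 FPKM against 22306, 22365 and 27473. The part of cell mixture in its HSD11B2 level was not tested.

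Other marker sums were higher in the stressed adrenal library of both breeds, as HSD11B2 was. The sum of 8 liver markers was 419 FPKM in unexposed and 623 in stressed Beagle, and 286 in unexposed and 554 in stressed Chinese Field Dog. ALB, the liver's albumin gene, named here after its values were seen, stood at 0.790 and 27.6 FPKM in unexposed and stressed Beagle, and at 0.121 and 9.09 in unexposed and stressed Chinese Field Dog. HP alone of the 8 was lower in stressed Beagle, at 26.3 unexposed and 7.70 stressed. Most of the sum was APOA1, at 354 and 539 FPKM in Beagle and 267 and 379 in Chinese Field Dog. APOA1 stood at 283 to 452 FPKM in pituitary too. There the liver sum was 327 and 445 FPKM in unexposed and stressed Beagle, and 293 and 461 in Chinese Field Dog. The sum of 7 kidney markers was 3.05 and 4.08 FPKM in unexposed and stressed Beagle, and 1.83 and 5.29 in unexposed and stressed Chinese Field Dog. The sum of 5 endothelial markers was 127 and 153 FPKM in Beagle and 121 and 163 in Chinese Field Dog, in the same order. The part of these tissues in the HSD11B2 difference was not tested.

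**Figure D4:**
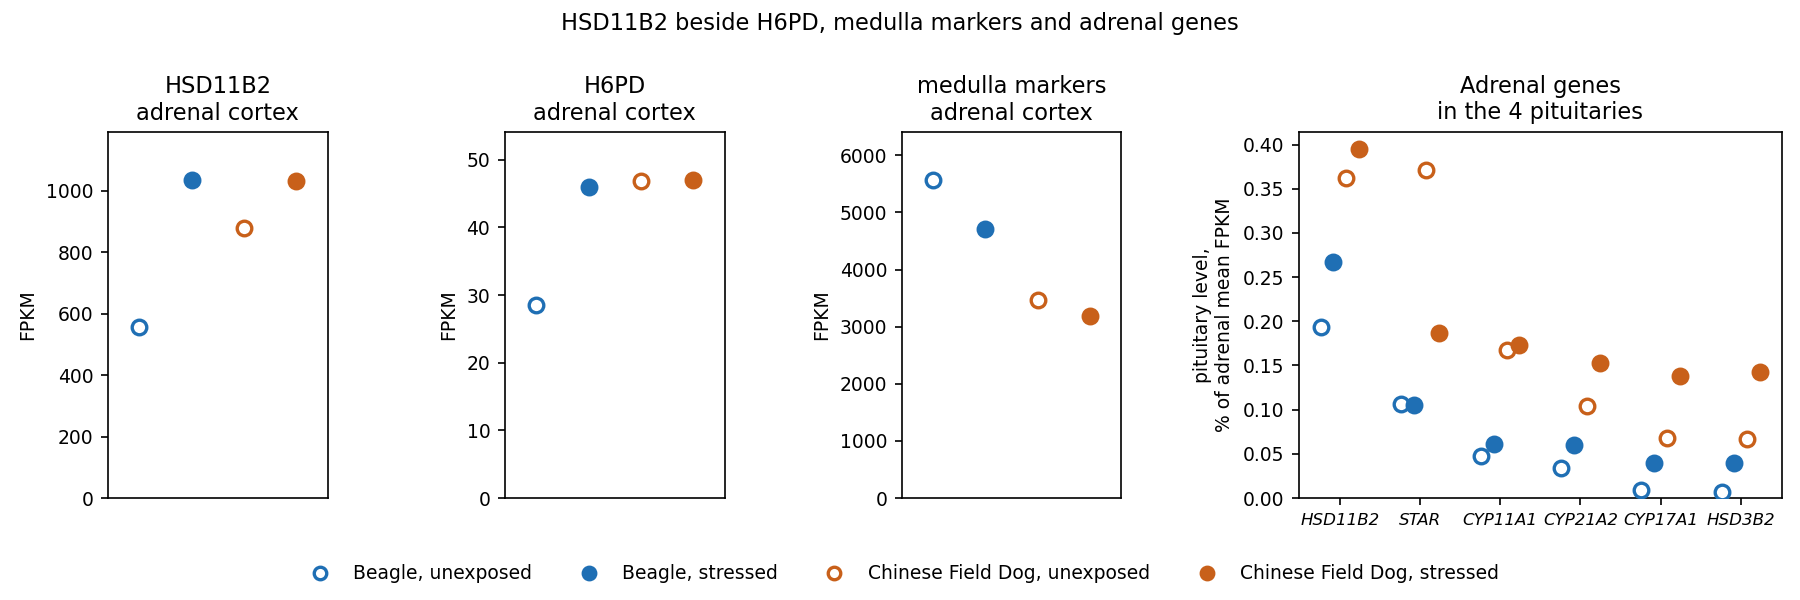
FPKM of HSD11B2 and H6PD and the summed FPKM of 7 medulla markers in the 4 adrenal libraries, each axis from 0, and at right the pituitary level of HSD11B2 and 5 steroid synthesis genes as a percentage of the adrenal mean. Open points are unexposed, filled points stressed, blue Beagle and orange Chinese Field Dog; the unexposed Beagle adrenal cortex is lowest for both enzymes and highest for medulla markers.

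The receptors moved little with stress in FPKM and normalized reads. NR3C1 had log2 ratios of 0.08 in Beagle adrenal cortex and -0.13 in Chinese Field Dog adrenal cortex, of -0.28 in Beagle pituitary (-0.34 to -0.21) and of -0.0031 in Chinese Field Dog pituitary. The 2 breeds had opposite signs in adrenal cortex, and the Beagle pituitary value rests on the unexposed library at 31.3 FPKM. NR3C2 had ratios of 0.30 and -0.29 in Beagle and Chinese Field Dog adrenal cortex, where both counting intervals include 0. In pituitary its ratios were -0.10 in Beagle and -0.24 in Chinese Field Dog (-0.41 to -0.07). The limma stress effects in adrenal cortex were -0.02 for NR3C1 (SE 0.15) and 0.0054 for NR3C2 (SE 0.16), and in pituitary -0.13 and -0.16 with the same errors, with adjusted p between 0.898 and 1. Under TPM scaling the pituitary effects were -0.39 for NR3C1 and -0.40 for NR3C2 (limma adjusted p = 0.363 for each). The median over all genes was -0.25 there.

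HSD11B1 and FKBP4 had no shared direction across the pairs. HSD11B1 had log2 ratios of -0.08 in Beagle and 0.19 in Chinese Field Dog adrenal cortex, and of 0.35 in Beagle pituitary (0.08 to 0.61) and -0.37 in Chinese Field Dog pituitary (-0.67 to -0.08). The pituitary ratios had opposite signs and both intervals exclude 0, and the Chinese Field Dog ratio includes the library with neuronal markers. FKBP4 had ratios of -0.08 and -0.11 in Beagle and Chinese Field Dog adrenal cortex, and of -0.24 and 0.11 in Beagle and Chinese Field Dog pituitary, with all 4 intervals excluding 0. The limma stress effects were 0.0056 (SE 0.22) and -0.10 (SE 0.15) in adrenal cortex and -0.05 and -0.06 in pituitary, for HSD11B1 and FKBP4 in turn, with adjusted p between 0.955 and 1. With SEs of 0.15 to 0.22 on the log2 scale and 2 residual degrees of freedom, effects of this size are not detectable, which does not show that the genes stayed constant.

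The difference between the stress effect in pituitary and that in adrenal cortex was itself tested. It was -0.11 for NR3C1, -0.16 for NR3C2, -0.06 for HSD11B1, -0.36 for HSD11B2 and 0.04 for FKBP4, with SEs of 0.21 to 0.31 and limma adjusted p of 0.933 to 0.987. None of the 5 passed, against 0.0135% of all genes.

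Between breeds, none of the 5 genes kept 1 direction in all 4 pairs. HSD11B2 and FKBP4 were higher in Chinese Field Dog in 3 of 4 pairs, NR3C2 and HSD11B1 in 1 of 4, and NR3C1 in 2 of 4. The log2 ratio of HSD11B2, Chinese Field Dog over Beagle, was 0.66 in unexposed adrenal cortex (0.63 to 0.70) and -0.0049 in stressed adrenal cortex (-0.03 to 0.02). In pituitary it was 0.91 in unexposed (0.339 to 1.497) and 0.58 in stressed libraries (0.06 to 1.10), on 40 to 77 reads. The adrenal difference was thus present among unexposed libraries alone, where the Beagle library was the low one. The limma breed effect was 0.32 in adrenal cortex (SE 0.21) and 0.52 in pituitary (SE 0.21), with limma adjusted p of 0.82897 and 0.638.

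NR3C2 was lower in Chinese Field Dog in both pituitary pairs, with log2 ratios of -0.28 unexposed (-0.44 to -0.13) and -0.42 stressed (-0.59 to -0.25), and had ratios of 0.04 and -0.55 in unexposed and stressed adrenal cortex. HSD11B1 had ratios of -0.33 and -0.06 in unexposed and stressed adrenal cortex and of 0.11 and -0.61 in unexposed and stressed pituitary. FKBP4 had ratios of 0.29 and 0.26 in unexposed and stressed adrenal cortex and of -0.10 and 0.25 in unexposed and stressed pituitary. NR3C1 lay between -0.25 and 0.02 in the 4 pairs. None of these passed: limma called 5 genes between breeds in adrenal cortex (0.0338%) and 3 in pituitary (0.0203%), and the adjusted p of the 5 genes lay between 0.638 and 0.953. At least 2-fold apart between breeds were 4.35% of all genes in unexposed and 3.0% in stressed adrenal cortex, and 3.44% in unexposed and 11.1% in stressed pituitary. In the authors' deposited table, all 40 comparisons of the 5 genes had p-values of 0.413 or more and an FDR of 0.999.

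Genes that work with the receptors were followed in 4 lists, to be read beside the 60.1% of all genes that passed between tissues. Of 14 chaperones of the receptor cycle, 2 were higher and 6 lower in pituitary by limma, with a median log2 difference of -0.39 against -0.00 over all genes. FKBP5 had the lowest value, and HSPA1L, a heat shock protein of the HSP70 family, the highest at 0.61 (3.46 against 5.82 FPKM in adrenal cortex and pituitary, adjusted p = 0.00141). The split of this list turned over under TPM scaling, where 6 of the 14 passed as higher and 2 as lower and its median was 0.17 against 0.50 over all genes.

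Of 14 receptor coregulators, 7 were higher and 4 lower in pituitary by limma, with a median of 0.25. PIAS1, a SUMO ligase, stood at 8.38 FPKM in adrenal cortex and 16.9 in pituitary (log2 difference 0.94, adjusted p = 0.00032). NRIP1, a corepressor, stood at 21.97 and 6.76 (log2 difference -1.57, adjusted p = 0.000184). Under TPM scaling 11 were higher and 1 lower.

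Of 7 tested genes that set how much cortisol reaches the receptors, 2 were higher and 3 lower in pituitary by limma, with a median of -0.07. ABCB1, an export pump that takes cortisol among its substrates and is listed in the files as MDR1, stood at 201.7 FPKM in adrenal cortex and 4.73 in pituitary (log2 difference -5.14, adjusted p = 6.26e-06). SERPINA6, which encodes the cortisol-binding globulin of plasma, was listed at 0 in 3 adrenal libraries and at 0.0404 FPKM in the stressed Beagle one. In pituitary it stood at 5.10 in unexposed and 0.965 in stressed Beagle, and at 3.95 in unexposed and 3.70 in stressed Chinese Field Dog, and it passed as higher there (adjusted p = 0.00246). Under TPM scaling 4 of the 7 were higher and 1 lower.

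Of 16 tested genes known to be induced by these receptors, 5 were higher and 4 lower in pituitary by limma, with a median of 0.21. DUSP1, a phosphatase of MAP kinases, stood at 159 FPKM in adrenal cortex and 27.5 in pituitary (log2 difference -2.50, adjusted p = 2.18e-05). SCNN1A, the alpha subunit of the epithelial sodium channel, stood at 1.25 and 31.9 (log2 difference 3.84, adjusted p = 1.71e-05). The beta subunit SCNN1B, named here after its values were seen, stood at 0.171 and 7.26 FPKM (log2 difference 2.80, adjusted p = 3.14e-05). Under TPM scaling 8 of the 16 were higher and 3 lower. None of the genes of the 4 lists passed in the stress or breed comparisons. In pituitary, 14 of the 16 induced genes had negative stress effects, with a median of -0.29 against -0.01 over all genes. Of all 14808 genes, 7822 had negative stress effects there. For breed, 12 of the 16 had negative effects, with a median of -0.36 against -0.02, and 7904 of all genes had them. FKBP5 was negative in both comparisons, at 80.3 FPKM in the unexposed Beagle pituitary, where NR3C1 was highest too. That 1 library enters both comparisons, so they are not independent, and its part in them was not tested.

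**Figure D5:**
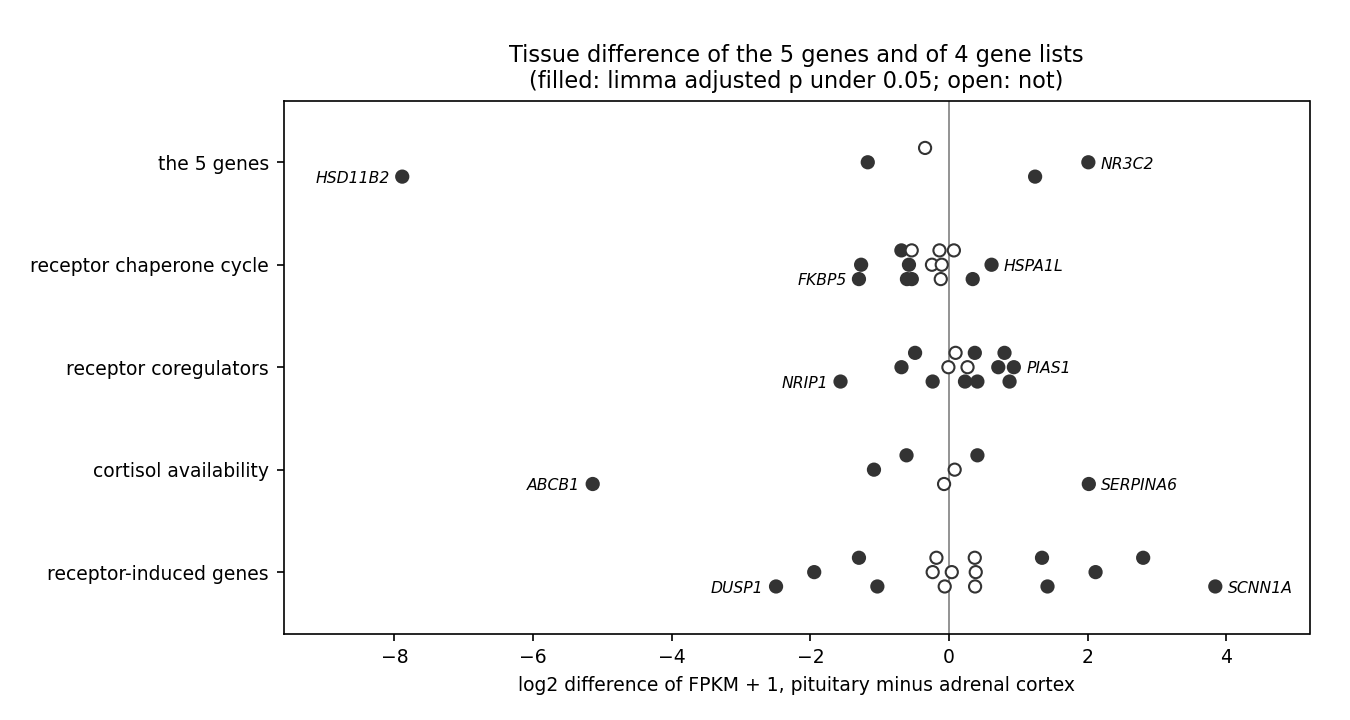
Log2 difference of FPKM + 1, pituitary minus adrenal cortex, for the 5 genes and the tested genes of 4 lists, with 1 point per gene; filled points passed a limma adjusted p of 0.05, and the lowest and highest gene of each row are named. HSD11B2, at -7.89, lies below all genes of the 4 lists, and ABCB1, at -5.14, is the next lowest.

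Likeness to other genes over the 8 libraries was set mainly by tissue, which the libraries share 4 by 4. Pearson correlations of log2(FPKM + 1), given as a description, were taken with 11661 genes. NR3C1 was closest to the cytoskeletal linker MACF1 (r = 0.999) and CEP85L (0.998), NR3C2 to MXD1 (0.999) and ST18 (0.998), both transcription factor genes, and FKBP4 to the mitochondrial chaperone HSPA9 (0.998) and the translation factor gene EIF3B (0.996). HSD11B2 was closest to the iron exporter SLC40A1 (0.999) and to SCAP, the escort protein of sterol sensing (0.999). Between 8.48% and 12.5% of genes had an r of at least 0.95 with each of these 4, so that such values are common here. HSD11B1 was closest to TMEM41B (0.961) and MOSPD3 (0.958) and had only 5 genes (0.0429%) at 0.95 or above.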

How the data were processed

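The authors aligned reads with TopHat to CanFam3.1, per the submitters' processing notes; the counting program, its strand setting and the annotation are not given in the sources used here. Values came from 8 deposited tables that set 2 libraries against each other, and a library's columns were identical in each table that held it. The authors' FPKM are reads per gene length and depth. Their scaled counts are a deposited signal, reads divided by 1 size factor per library; dividing by the step gave whole reads for 97.6% to 99.1% of values, within 0.02. The p-value and log2 columns are the authors' own, in the deposited tables.

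The test was limma (version 3.58.1, R version 4.3.3) applied to log2(FPKM + 1) of genes with a mean of at least 1 FPKM. The tissue fit used tissue, breed and exposure (4 residual degrees of freedom). Stress and breed effects came from 1 fit of 6 coefficients with tissue-specific terms (2 residual degrees of freedom), in which the breeds stand in for replicates of stress and the exposures for replicates of breed. Pairs of libraries have no test; intervals are 95% Clopper-Pearson on recovered reads, and a count of 0 allows 3 reads. Alternatives were a pseudocount of 0.1, no filter, edgeR 4.0.16, DESeq2 1.42.0, a replicate block, left-out libraries and, added after seeing the data, TPM scaling. The fits were tested on simulated data. Per list, the genes with the largest tissue difference in each direction are named, with FKBP5 and H6PD, and per gene the 2 most correlated genes. List symbols were matched to the files, also by older symbols: 14 of 16 chaperones, 14 of 15 coregulators, 8 of 12 cortisol genes and 17 of 19 induced genes. The genes and lists were chosen with earlier results of these data known.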

Additional observations from a re-analysis of the deposited data

Results flagged for a closer look

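NR3C1 in the unexposed Beagle pituitary, at 31.3 FPKM, stood far from the other 3 pituitaries at 25.9 to 26.2. Its gap to the nearest of them was 0.936 of the range of the 4, above Dixon's 95% critical value for 4 samples. Chance flags about 1 in 20 such groups, and 10 groups were examined. FKBP5, at 80.3 FPKM, was highest in the same pituitary, and its forebrain neuron markers summed to 7.61 FPKM, the lowest of the 4. Under TPM scaling NR3C1 stood at 34.1 in unexposed and 24.1 in stressed Beagle pituitary. It stood at 29.9 in unexposed and 24.1 in stressed Chinese Field Dog pituitary. On that scale the other 3 pituitaries did not lie close together, and Dixon's rule was not applied. The sum that TPM divides by lacks GH1 in the unexposed Beagle pituitary, which raises TPM values there. GH1 stood at 73846 to 81835 FPKM in the other pituitaries.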

How the results depend on the processing

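The tissue calls and directions of NR3C1, NR3C2, HSD11B2 and FKBP4 held under every alternative that was run. With the combination of breed and exposure as a replicate block, the adjusted p values were 0.000577, 0.000196, 7.23e-05 and 0.000742 in that order and 0.0637 for HSD11B1, and no call on the 5 genes changed. For stress and breed no paired analysis was possible because each group holds 1 library. Leaving out 1 library gave 1.19 to 1.28 for NR3C1, 1.92 to 2.06 for NR3C2, -7.99 to -7.73 for HSD11B2, -1.24 to -1.10 for FKBP4 and -0.44 to -0.24 for HSD11B1, and 7597 to 9306 called genes.

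Under TPM scaling, chosen after seeing the data, adrenal mean levels were 7.61 for NR3C1, 1.84 for NR3C2, 11.1 for HSD11B1, 596 for HSD11B2 and 183 for FKBP4. The tissue difference of HSD11B1 turned to 0.18, the adrenal stress effects of NR3C2 and HSD11B1 to -0.13 and -0.19, and the difference of stress effects of FKBP4 to -0.010. TPM moved the median of all genes by 0.50 between tissues, to -0.17 for stress in adrenal cortex, -0.25 for stress in pituitary and -0.13 for breed in adrenal cortex. GH1, listed at 0 in the unexposed Beagle pituitary, is missing from the sum that TPM divides by in that library. With TMM-normalized reads the breed ratio of HSD11B2 in unexposed adrenal cortex was 0.70. The cause was not tested.

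With 1 breed left out, stress effects in adrenal cortex ranged from -0.11 to 0.069 for NR3C1, -0.21 to 0.22 for NR3C2 and -0.071 to 0.082 for HSD11B1, and in pituitary from -0.40 to 0.30 for HSD11B1 and -0.23 to 0.11 for FKBP4. With 1 exposure left out, breed effects in adrenal cortex ranged from -0.17 to 0.015 for NR3C1, -0.40 to 0.029 for NR3C2 and -0.0056 to 0.66 for HSD11B2, and in pituitary from -0.25 to 0.015 for NR3C1, -0.67 to 0.035 for HSD11B1 and -0.10 to 0.23 for FKBP4. The difference of stress effects ranged from -0.24 to 0.020 for NR3C1, -0.38 to 0.050 for NR3C2, -0.41 to 0.30 for HSD11B1 and -0.13 to 0.21 for FKBP4.

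Counts of called genes were small and unstable. For stress in adrenal cortex, 1 by limma became 4 with a pseudocount of 0.1, 0 with no filter (710 at an unadjusted p under 0.05), 0 by edgeR (564), 10 by DESeq2, 2 under TPM and 23 to 28 with 1 breed left out. For stress in pituitary, 1 became 0 by edgeR (830), 67 by DESeq2 and 45 to 109. For breed in adrenal cortex, 5 became 8 with the pseudocount, 0 by edgeR (1255), 103 by DESeq2 and 24 to 34. For breed in pituitary, 3 became 5 with the pseudocount, 225 by DESeq2, 8 under TPM and 48 to 154. For the difference of stress effects, 2 became 5 with the pseudocount, 1 with no filter, 0 by edgeR (744), 29 by DESeq2 and 0 (362 by limma at an unadjusted p under 0.05) to 44. A left-out breed leaves 1 pair, whose spread is assumed to be like that of the other tissue. Depth limits HSD11B2 in pituitary and NR3C2 in adrenal cortex.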
